A study of Mus musculus with 15 samples.

Results

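The suppressors of cytokine signaling, encoded by Socs1 to Socs7, and the related CIS protein, encoded by Cish, are intracellular inhibitors of cytokine receptors. Their 8 genes were taken by symbol, and all 8 were found among the 55385 genes of the count table. All 8 were also among the 13005 genes tested, which had more than 1 CPM in at least 2 libraries. CPM is the count of a gene scaled to a common library size, with a normalization factor for each library. The libraries were made from the RNA of bone marrow-derived macrophages (BMDMs) of BALB/c mice aged 6 weeks. Every mouse carried floxed Stat5 alleles, and in 3 STAT5 cKO mice these were combined with Csf1r-iCre, a Cre recombinase driven by the promoter of the M-CSF receptor gene. This promoter is active in myeloid cells and, as the study notes, in part of the splenic lymphocytes. The controls were 2 STAT5 fl/fl mice, and whether they carried the Cre transgene is not given in the sources used here. BMDMs of each mouse were kept for 2 h in serum-free DMEM, in 20 ng/mL recombinant mouse GM-CSF (rmGM-CSF), or in 4T1 CM, the medium conditioned by the 4T1 mouse mammary tumor line. This gave 15 libraries in 6 groups. Each library name carries a number from 112 to 116, found under 1 genotype and all 3 treatments, which was read here as the mouse, although the labels do not say so. A further STAT5 fl/fl replicate had been removed by the authors at quality control.

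GM-CSF binds a receptor of a private alpha chain and the shared beta chain Csf2rb, to which the kinase JAK2 is attached, and JAK2 phosphorylates STAT5. Phosphorylated STAT5 enters the nucleus and binds DNA, and Cish is a classical target of it. Each family protein has an SH2 domain, which binds phosphorylated tyrosines, and a SOCS box, which recruits Elongin B, Elongin C and Cullin 5 into a ubiquitin ligase. CIS and SOCS2 act mostly at receptor tail tyrosines, whereas SOCS1 and SOCS3 also block JAK kinases directly. SOCS4 to SOCS7 have been linked more to receptor tyrosine kinases, such as the EGF and insulin receptors. The comparisons asked how each gene responded to the recombinant cytokine and to tumor cell medium, and how that response differed without STAT5.

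Counts of the deleted genes matched the genotype labels of all 15 libraries. Stat5a had 29.0 to 45.1 CPM and Stat5b 60.9 to 77.8 CPM in the STAT5 fl/fl libraries, while the STAT5 cKO libraries held 0 to 3 counts of Stat5a and 0 to 4 counts of Stat5b. Library totals ranged from 16016736 to 22883108 counts, so that 3 counts, taken as the floor of detection, corresponded to 0.124 to 0.192 CPM for counting error only. All 7 macrophage markers, among them Csf1r and Cd68, exceeded 1 CPM in each group. Their summed level was 23852.5 to 27205.6 CPM in STAT5 fl/fl BMDMs and 29976.7 to 42693.2 CPM in STAT5 cKO BMDMs, most of it from Lyz2. Among markers of other cells, Cd3d, Cd3e, Alas2 and Krt8 had at most 2 counts in a library, and Cd3g, Hbb-bt, Krt14 and Ly6g had 0. Members of these lists with more counts included Cd4 (5.80 to 10.5 CPM), Pf4 (3.69 to 37.4), Pdgfrb (3.81 to 11.1), Col1a2 (0.501 to 4.35) and Cdh1 (0 to 4.34). Others were Zbtb46 (0.487 to 3.86 CPM), S100a8 (0.138 to 2.36), Ccr7 (0.0910 to 1.89) and Itga2b (0.161 to 1.27). Some of these moved with genotype. The summed T and NK cell list was 5.80 to 7.36 CPM in STAT5 cKO and 8.91 to 10.5 CPM in STAT5 fl/fl libraries. Nearly all of it was Cd4, as the other 5 genes of this list had at most 2 counts in a library. The fibroblast list, higher in STAT5 cKO within each treatment, was 8.65 to 14.5 CPM in STAT5 cKO and 5.21 to 8.83 CPM in STAT5 fl/fl. The erythroid and megakaryocyte list (4.37 to 38.3 CPM) and the epithelial list (0 to 4.34 CPM) were highest in STAT5 fl/fl with 4T1 CM. The former was mostly Pf4 and the latter, in that group, mostly Cdh1. The summed neutrophil (0.276 to 2.36 CPM), dendritic cell (1.31 to 4.86), B cell (0.155 to 0.828) and mast cell or basophil lists (0 to 0.0920) were low throughout. The part of any of these in the results was not tested. In RNA from whole cultures, fewer cells that express a gene and less of its RNA per cell cannot be told apart.

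Promoter windows were in the RefSeq table for 4 of the 8 genes, Cish, Socs1, Socs3 and Socs4. A window covers 250 bases before and 50 bases after the annotated start, on GRCm38.p6. It was searched for TTCNNNGAA, the STAT5-type element, which is its own reverse complement and so was read on both strands, and for TTCNNNNGAA, with a longer spacer. Cish, Socs3 and Socs1 are shown here because their RNA moved most with STAT5 status among the genes with a window. Each is printed 5′ to 3′ on the strand of the gene up to 30 bases after the start, with TTCNNNGAA in capitals.
Cish, chr9:107296409-107296688, plus strand: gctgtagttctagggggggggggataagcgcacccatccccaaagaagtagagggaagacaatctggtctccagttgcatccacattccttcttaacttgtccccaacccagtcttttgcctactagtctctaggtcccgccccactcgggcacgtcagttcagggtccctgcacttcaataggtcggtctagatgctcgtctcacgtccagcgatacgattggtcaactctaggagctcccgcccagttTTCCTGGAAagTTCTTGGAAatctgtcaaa
Socs3, chr11:117969337-117969616, minus strand: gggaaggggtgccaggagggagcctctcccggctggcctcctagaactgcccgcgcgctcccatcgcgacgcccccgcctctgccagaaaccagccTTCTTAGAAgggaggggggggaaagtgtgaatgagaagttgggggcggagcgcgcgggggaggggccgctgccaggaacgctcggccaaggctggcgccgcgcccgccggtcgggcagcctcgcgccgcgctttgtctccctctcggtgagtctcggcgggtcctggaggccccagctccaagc
Socs1, chr16:10785507-10785786, minus strand: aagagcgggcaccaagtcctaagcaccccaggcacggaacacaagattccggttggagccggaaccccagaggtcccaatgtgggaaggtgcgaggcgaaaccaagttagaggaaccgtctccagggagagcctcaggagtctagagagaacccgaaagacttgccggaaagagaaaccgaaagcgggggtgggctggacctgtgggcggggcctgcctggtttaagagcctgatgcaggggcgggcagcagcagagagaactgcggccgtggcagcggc
The Cish window held 2 copies, which began 0 and 11 bases from the annotated start (chr9:107296659-107296667 and chr9:107296670-107296678). This start lies inside the Ensembl gene used for counting, which extends from 107296026 to 107302784 on chromosome 9. The Socs3 window held 1 copy, 154 to 146 bases upstream of the start (chr11:117969512-117969520). This whole window lies inside the Ensembl gene used for counting, which extends from 117966079 to 117970047 on chromosome 11. The Socs1 and Socs4 windows held 0 copies. None of the 4 windows held the longer spacing. Of all 32851 windows in the table, 8.30% held at least 1 TTCNNNGAA, 0.457% held at least 2, and 6.95% held at least 1 TTCNNNNGAA. These matches describe letters within the windows and say nothing about binding elsewhere.

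**Figure D1:**
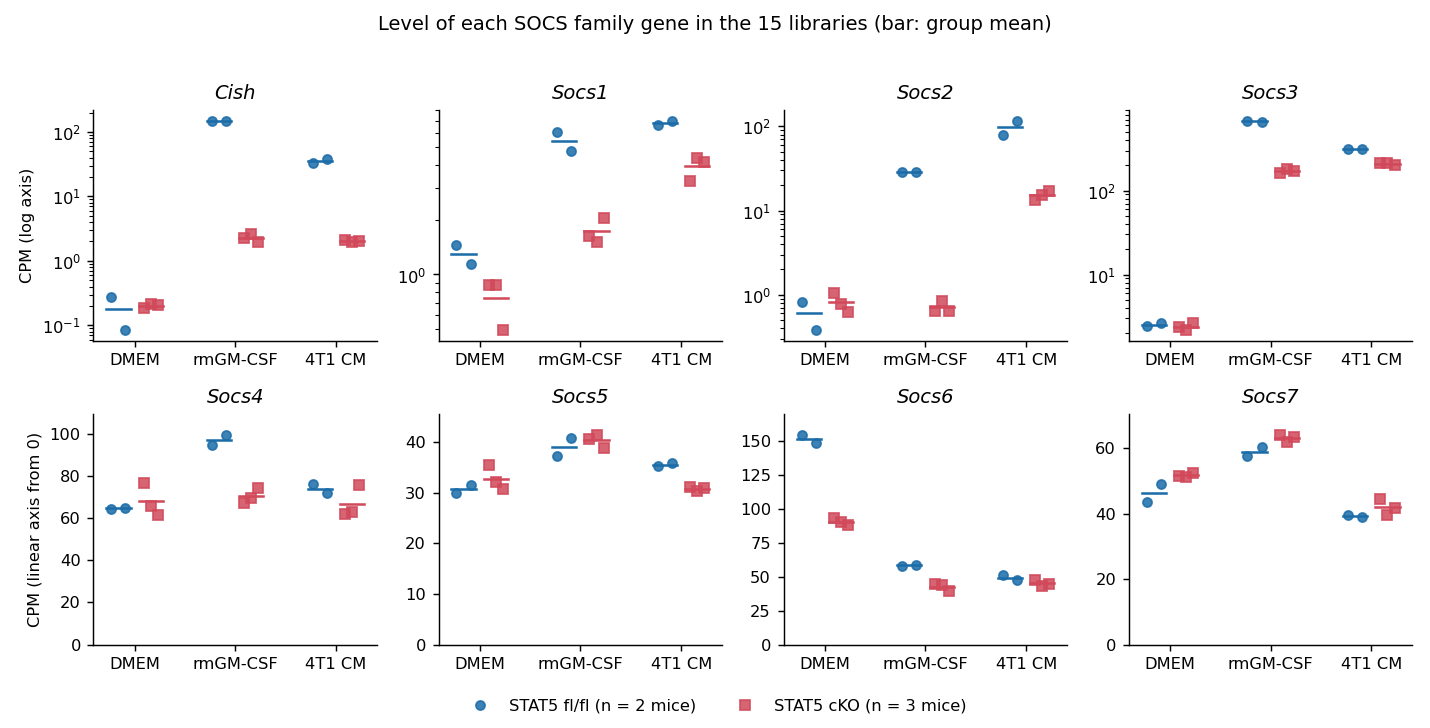
CPM of the 8 genes in each of the 15 libraries, by treatment; circles are STAT5 fl/fl (n = 2 mice), squares STAT5 cKO (n = 3 mice) and bars group means. The upper axes are logarithmic and the lower ones linear from 0. With rmGM-CSF, Cish lay at 146.5 and 149.8 CPM in STAT5 fl/fl and at 1.98 to 2.63 CPM in STAT5 cKO BMDMs, whereas Socs5 and Socs7 lay close together in both genotypes.

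Cish and Socs2, whose proteins occupy phosphorylated receptor tails, were nearly silent in DMEM, were high after stimulation of STAT5 fl/fl BMDMs, and were far lower in stimulated STAT5 cKO BMDMs. They differed in which stimulus gave the higher level, which was rmGM-CSF for Cish and 4T1 CM for Socs2. Cish (ENSMUSG00000032578) had 0.273 and 0.0844 CPM in the STAT5 fl/fl libraries with DMEM, from 6 and 2 counts. With rmGM-CSF it had 149.8 and 146.5 CPM, and with 4T1 CM 33.1 and 38.7 CPM. The STAT5 cKO libraries had 0.184, 0.218 and 0.206 CPM with DMEM, 2.26, 2.63 and 1.98 with rmGM-CSF, and 2.08, 1.99 and 2.04 with 4T1 CM. The genotypes overlapped in DMEM and were far apart under both stimuli. In edgeR's quasi-likelihood test with Benjamini-Hochberg adjustment over all tested genes, called at an adjusted p under 0.01, Cish was 63.6-fold lower in STAT5 cKO with rmGM-CSF (log2 fold change -5.99, SE 0.135, adjusted p = 8.61e-17). With 4T1 CM it was 17.6-fold lower (log2 fold change -4.13, SE 0.139, adjusted p = 1.33e-13). In DMEM the log2 fold change was 0.21 (SE 0.587, adjusted p = 0.878), and its 95% interval, -1.03 to 1.45, is wide because few counts stand behind it.

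Cish rose with both stimuli in both genotypes. In STAT5 fl/fl BMDMs the log2 fold change against DMEM was 9.68 with rmGM-CSF (SE 0.471, adjusted p = 2.18e-16) and 7.63 with 4T1 CM (SE 0.472, adjusted p = 2.30e-14). From the summed counts of the groups these were ratios of 845 (95% interval 429 to 1959, counting error only) and 204 (103 to 474). The ratios rest on 8 counts in DMEM, and the fitted values move with the mouse that is left out, to 10.7 and 8.74 without mouse 112 and to 9.07 and 6.89 without mouse 113. In STAT5 cKO BMDMs, Cish rose by a log2 fold change of 3.48 with rmGM-CSF (SE 0.374, adjusted p = 3.65e-08) and of 3.29 with 4T1 CM (SE 0.375, adjusted p = 3.85e-08), from 14 counts in DMEM to 136 and 131. The STAT5 cKO levels under the 2 stimuli did not pass the test against each other (log2 fold change -0.19, adjusted p = 0.395), with a 95% interval of -0.56 to 0.18. In STAT5 fl/fl BMDMs, Cish was lower with 4T1 CM than with rmGM-CSF (log2 fold change -2.05, SE 0.0873, adjusted p = 1.28e-11).

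Socs2 (ENSMUSG00000020027), best known as a brake on growth hormone receptor signaling, had 0.819 and 0.380 CPM with DMEM in STAT5 fl/fl BMDMs. It had 28.9 and 28.4 CPM with rmGM-CSF, and 80.0 and 117.2 CPM with 4T1 CM. The STAT5 cKO libraries had 1.06, 0.784 and 0.618 CPM with DMEM, 0.638, 0.848 and 0.639 with rmGM-CSF, and 13.5, 15.3 and 17.3 with 4T1 CM. The STAT5 cKO libraries with rmGM-CSF thus overlapped those with DMEM, while those with 4T1 CM lay above both. Against STAT5 fl/fl, Socs2 was 39.5-fold lower with rmGM-CSF (log2 fold change -5.30, SE 0.360, adjusted p = 9.64e-11) and 6.41-fold lower with 4T1 CM (log2 fold change -2.68, SE 0.140, adjusted p = 1.39e-09). In DMEM the difference did not pass the test (log2 fold change 0.45, SE 0.520, adjusted p = 0.657).

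The response of Socs2 to rmGM-CSF was 5.58 on the log2 scale in STAT5 fl/fl BMDMs (SE 0.440, adjusted p = 5.76e-11), a ratio of summed counts of 48.4 (33.1 to 73.8, counting error only). The STAT5 cKO response was -0.18 (SE 0.454, adjusted p = 0.800), with a 95% interval of 0.455 to 1.72 for the fold. The 42 counts with rmGM-CSF and 56 with DMEM do not allow a finer statement. With 4T1 CM, Socs2 rose in both genotypes, by a log2 fold change of 7.37 in STAT5 fl/fl (SE 0.436, adjusted p = 3.26e-13) and of 4.23 in STAT5 cKO (SE 0.315, adjusted p = 9.64e-11). The ratio of summed counts in STAT5 cKO was 18.9 (14.5 to 25.3). The STAT5 fl/fl values against DMEM, where both libraries together had 27 counts, were 6.20 and 8.25 without mouse 112, and the value with 4T1 CM was 6.60 without mouse 113. Between the stimuli, Socs2 was higher with 4T1 CM in STAT5 fl/fl (log2 fold change 1.78, SE 0.149, adjusted p = 4.97e-08) and in STAT5 cKO BMDMs (4.41, SE 0.356, adjusted p = 2.45e-10). Cdh1, which the epithelial marker list holds, had 1.22 and 3.70 CPM in STAT5 fl/fl with rmGM-CSF and 4T1 CM and 0.0312 and 1.48 CPM in STAT5 cKO BMDMs, while the other epithelial markers had at most 4 counts in a library. Their part in the Socs2 levels was not tested.

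Socs3 and Socs1 encode the members that inhibit JAK kinases through a kinase inhibitory region, SOCS3 mainly at gp130 and related receptors and SOCS1 mainly downstream of interferons. Socs3 had the highest level of the family per kb of exon after stimulation in both genotypes, and its level rose in both. Socs3 (ENSMUSG00000053113) had 2.41 and 2.62 CPM with DMEM in STAT5 fl/fl BMDMs, 680.9 and 653.5 with rmGM-CSF, and 310.8 and 311.8 with 4T1 CM. The 3 STAT5 cKO mice had 2.35, 2.18 and 2.68 CPM with DMEM, 162.5, 181.2 and 169.8 with rmGM-CSF, and 211.8, 214.3 and 201.8 with 4T1 CM. The genotypes overlapped in DMEM and not under either stimulus. Socs3 was 3.90-fold lower in STAT5 cKO with rmGM-CSF (log2 fold change -1.96, SE 0.0596, adjusted p = 2.32e-13) and 1.49-fold lower with 4T1 CM (log2 fold change -0.57, SE 0.0597, adjusted p = 5.14e-06). In DMEM the log2 fold change was -0.07 (SE 0.143, adjusted p = 0.847).

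Against DMEM, Socs3 rose by 8.05 on the log2 scale with rmGM-CSF (SE 0.119, adjusted p = 7.19e-19) and by 6.95 with 4T1 CM (SE 0.119, adjusted p = 6.66e-18) in STAT5 fl/fl BMDMs. Without STAT5 it rose by 6.15 (SE 0.0989, adjusted p = 1.86e-18) and 6.44 (SE 0.0987, adjusted p = 8.43e-19). As folds, the rises with rmGM-CSF were 264 and 71.0 in the 2 genotypes. The order of the stimuli differed between genotypes, since Socs3 was lower with 4T1 CM than with rmGM-CSF in STAT5 fl/fl (log2 fold change -1.10, SE 0.0648, adjusted p = 5.64e-10) and higher in STAT5 cKO BMDMs (0.29, SE 0.0539, adjusted p = 0.000297). Without mouse 114 the latter value was 0.245 (adjusted p = 0.0107, range over all alternatives 7.46e-06 to 0.0107), which missed the threshold.

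Socs1 (ENSMUSG00000038037) was scarce, at 1.46 and 1.14 CPM with DMEM in STAT5 fl/fl BMDMs, 6.11 and 4.78 with rmGM-CSF, and 6.62 and 7.02 with 4T1 CM. Its level in STAT5 cKO BMDMs was 0.874, 0.871 and 0.494 CPM with DMEM, 1.62, 1.52 and 2.05 with rmGM-CSF, and 3.27, 4.40 and 4.17 with 4T1 CM. Within each treatment, the 3 STAT5 cKO values lay below both STAT5 fl/fl values. So few libraries can separate in this way by chance, the same mice recur, and the share of all genes that separate was not counted. Socs1 was 3.18-fold lower with rmGM-CSF (log2 fold change -1.67, SE 0.224, adjusted p = 3.15e-05) and 1.73-fold lower with 4T1 CM (log2 fold change -0.79, SE 0.170, adjusted p = 0.00422). The call with 4T1 CM was lost without mouse 112 (adjusted p = 0.0277), 113 (0.0627) or 114 (0.0287) and with DESeq2 (0.0128), and over all alternatives the adjusted p ranged from 0.00123 to 0.0627. In DMEM, with 12 to 32 counts per library, the log2 fold change was -0.80 (SE 0.328, adjusted p = 0.159).

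Socs1 rose with both stimuli in both genotypes. With rmGM-CSF the log2 fold change was 2.06 in STAT5 fl/fl (SE 0.266, adjusted p = 3.74e-06) and 1.19 in STAT5 cKO (SE 0.296, adjusted p = 0.00366). The latter missed the threshold without mouse 114 (adjusted p = 0.0127), 115 (0.0124) or 116 (0.0764), within a range over all alternatives of 0.000125 to 0.0764. With 4T1 CM it was 2.39 in STAT5 fl/fl (SE 0.257, adjusted p = 1.66e-07) and 2.41 in STAT5 cKO (SE 0.266, adjusted p = 1.58e-07). The difference between these 2 responses was 0.01 on the log2 scale, with a 95% interval of -0.77 to 0.79. In STAT5 cKO BMDMs, Socs1 was higher with 4T1 CM than with rmGM-CSF (log2 fold change 1.21, SE 0.212, adjusted p = 0.000108), and in STAT5 fl/fl BMDMs the same comparison gave 0.34 (SE 0.185, adjusted p = 0.158).

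**Figure D2:**
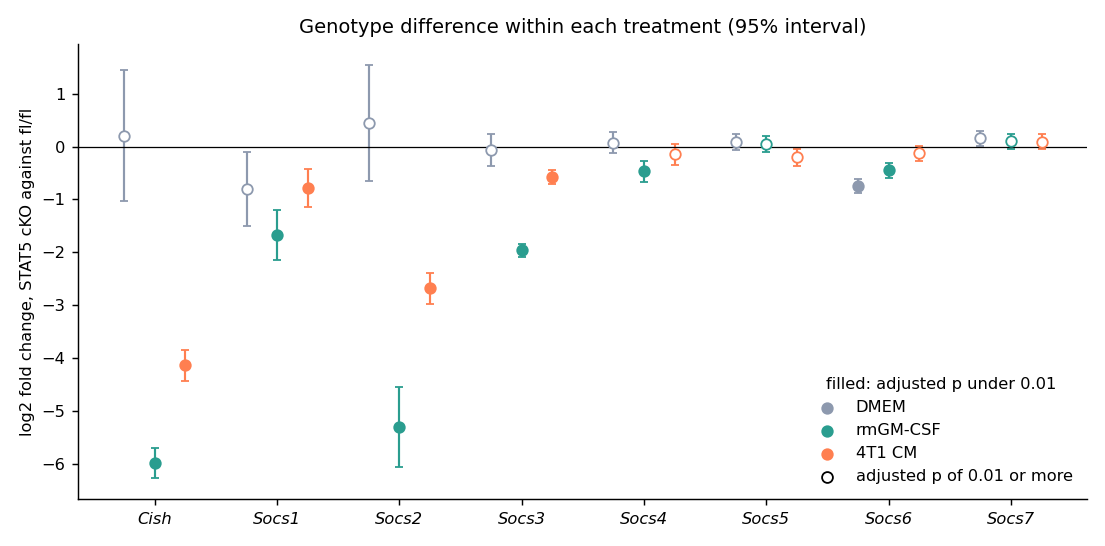
Log2 fold change of STAT5 cKO against STAT5 fl/fl for each gene (horizontal axis) within DMEM, rmGM-CSF and 4T1 CM; points are edgeR estimates, bars 95% intervals, and filled points have an adjusted p under 0.01. Cish (-5.99 and -4.13) and Socs2 (-5.30 and -2.68) lie lowest under rmGM-CSF and 4T1 CM, and Socs6 is the gene with a filled point in DMEM (-0.74).

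Socs6 fell under both stimuli in both genotypes, and its level in DMEM was lower without STAT5. Its protein has been linked to insulin receptor and KIT signaling. Socs6 (ENSMUSG00000056153) had 154.7 and 148.7 CPM with DMEM in STAT5 fl/fl BMDMs, 58.0 and 59.0 with rmGM-CSF, and 51.2 and 47.5 with 4T1 CM. STAT5 cKO BMDMs had 93.6, 90.1 and 88.5 CPM with DMEM, 44.7, 43.8 and 39.9 with rmGM-CSF, and 47.8, 43.2 and 44.8 with 4T1 CM. In DMEM and rmGM-CSF the STAT5 cKO libraries lay below the STAT5 fl/fl libraries, and with 4T1 CM the genotypes overlapped. Socs6 was the only member called between genotypes in DMEM, 1.67-fold lower in STAT5 cKO (log2 fold change -0.74, SE 0.0632, adjusted p = 3.22e-06). It was 1.37-fold lower with rmGM-CSF (log2 fold change -0.45, SE 0.0688, adjusted p = 0.000152), and with 4T1 CM the log2 fold change was -0.13 (SE 0.0683, adjusted p = 0.245). In STAT5 fl/fl BMDMs the log2 fold change of Socs6 against DMEM was -1.37 with rmGM-CSF (SE 0.0716, adjusted p = 8.27e-11) and -1.62 with 4T1 CM (SE 0.0717, adjusted p = 9.30e-12). The STAT5 cKO values were -1.08 (SE 0.0599, adjusted p = 2.68e-10) and -1.003 (SE 0.0593, adjusted p = 2.33e-10).

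Socs4, Socs5 and Socs7 were expressed in DMEM and varied little. SOCS4 and SOCS5 have been linked to EGF receptor turnover, and SOCS7 to insulin receptor substrate signaling. Socs4 (ENSMUSG00000048379) had 64.2 and 64.9 CPM with DMEM in STAT5 fl/fl BMDMs, 94.5 and 99.4 with rmGM-CSF, and 76.0 and 71.8 with 4T1 CM. The STAT5 cKO libraries held 76.8, 65.6 and 61.4 CPM with DMEM, 67.1, 69.5 and 74.3 with rmGM-CSF, and 61.8, 63.0 and 75.5 with 4T1 CM. The genotypes were thus separate with rmGM-CSF and overlapped in DMEM and 4T1 CM, where the log2 fold changes were 0.07 (adjusted p = 0.710) and -0.15 (adjusted p = 0.335). With rmGM-CSF, Socs4 was 1.38-fold lower in STAT5 cKO (log2 fold change -0.47, SE 0.0939, adjusted p = 0.00192). This call was lost without mouse 112 (adjusted p = 0.0208), 113 (0.0606) or 115 (0.0114), within a range over all alternatives of 6.98e-05 to 0.0606. Socs4 rose with rmGM-CSF in STAT5 fl/fl (log2 fold change 0.59, SE 0.103, adjusted p = 0.000205), a call lost with either STAT5 fl/fl mouse left out (adjusted p = 0.0120 and 0.0229, range over all alternatives 8.81e-07 to 0.0229). In STAT5 cKO BMDMs the same response was 0.05 (SE 0.0844, adjusted p = 0.698). Between the stimuli, Socs4 was lower with 4T1 CM in STAT5 fl/fl BMDMs (log2 fold change -0.39, SE 0.103, adjusted p = 0.00528), which was lost without mouse 112 (0.0368) or 113 (0.191), within a range of 0.00115 to 0.191.

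Socs5 (ENSMUSG00000037104) ranged from 30.0 to 40.8 CPM in STAT5 fl/fl and from 30.3 to 41.4 CPM in STAT5 cKO libraries, and Socs7 (ENSMUSG00000038485) from 39.04 to 60.3 and from 39.6 to 64.0 CPM. Neither passed the test between genotypes within any treatment. For Socs7, all STAT5 cKO libraries were above the STAT5 fl/fl libraries of the same treatment. The means were 51.7 and 46.3 CPM in DMEM, 63.1 and 58.9 with rmGM-CSF, and 41.9 and 39.3 with 4T1 CM. With so few libraries such a separation can arise by chance, the same mice recur over the treatments, and the share of all genes that separate was not counted. For Socs5 the STAT5 cKO libraries lay below with 4T1 CM (30.8 and 35.5 CPM) and overlapped otherwise. The Socs5 log2 fold changes of STAT5 cKO against STAT5 fl/fl were 0.09, 0.05 and -0.21 in DMEM, rmGM-CSF and 4T1 CM, and those of Socs7 were 0.16, 0.10 and 0.09. The 95% interval that reached farthest was that of Socs5 with 4T1 CM, from -0.36 to -0.05. Both rose with rmGM-CSF. The log2 fold change of Socs5 was 0.35 in STAT5 fl/fl (adjusted p = 0.00251) and 0.30 in STAT5 cKO (adjusted p = 0.00161), and that of Socs7 was 0.35 (adjusted p = 0.00123) and 0.29 (adjusted p = 0.00117). These small rises depended on the mice, the 2 in STAT5 fl/fl missing the threshold without mouse 112 or 113 and those in STAT5 cKO without mouse 115 or 116, and for Socs7 also without 114. With 4T1 CM, Socs7 fell in STAT5 cKO BMDMs (log2 fold change -0.30, SE 0.0606, adjusted p = 0.000498), a call lost without mouse 115 (0.0124) or 116 (0.0114), within a range of 0.000122 to 0.0124. In STAT5 fl/fl BMDMs its log2 fold change was -0.24 (adjusted p = 0.0144). Between the stimuli, Socs7 was lower with 4T1 CM than with rmGM-CSF in STAT5 fl/fl (log2 fold change -0.58, SE 0.0755, adjusted p = 8.14e-06) and in STAT5 cKO (-0.59, SE 0.0606, adjusted p = 4.57e-07). Socs5 was lower in STAT5 cKO (-0.39, SE 0.0659, adjusted p = 0.000116).

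Counted over the family, 1 of 8 genes was called between the genotypes in DMEM, beside 2.49% of all genes tested. With rmGM-CSF 6 of 8 were called, all lower in STAT5 cKO, beside 9.8% of all genes, and with 4T1 CM 4 of 8, all lower, beside 7.7%. The median log2 fold change of the 8 genes was 0.08, -1.07 and -0.39 in these comparisons. Without mouse 112 or 113, which leaves 1 library in each STAT5 fl/fl group, the shares of all genes were lower in each of these comparisons. Fewer members were then called with rmGM-CSF and with 4T1 CM, and the DMEM count was unchanged. Members called also fell with rmGM-CSF without mouse 115 and with 4T1 CM without mouse 114. Stimulation gave higher backgrounds. With rmGM-CSF against DMEM, 8 of 8 genes were called in STAT5 fl/fl (7 higher and 1 lower, beside 28.5% of all genes) and 6 of 8 in STAT5 cKO (5 higher and 1 lower, beside 23.5%). These counts went down to 5 in STAT5 fl/fl without mouse 112 (beside 15.2% of all genes) or 113 (13.4%), and to 3 in STAT5 cKO without mouse 115 (14.2%) or 116 (16.0%). With 4T1 CM against DMEM they were 5 in STAT5 fl/fl (4 higher and 1 lower, beside 37.4%) and 6 in STAT5 cKO (4 higher and 2 lower, beside 37.6%). Between 4T1 CM and rmGM-CSF, 5 of 8 were called in STAT5 fl/fl (1 higher and 4 lower, beside 30.5%) and 5 in STAT5 cKO (3 higher and 2 lower, beside 34.1%). Without mouse 113 the shares of all genes in STAT5 fl/fl were lower with 4T1 CM against DMEM and between the stimuli. Fewer members were then called between the stimuli. The comparisons with DMEM share their DMEM libraries.

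**Figure D3:**
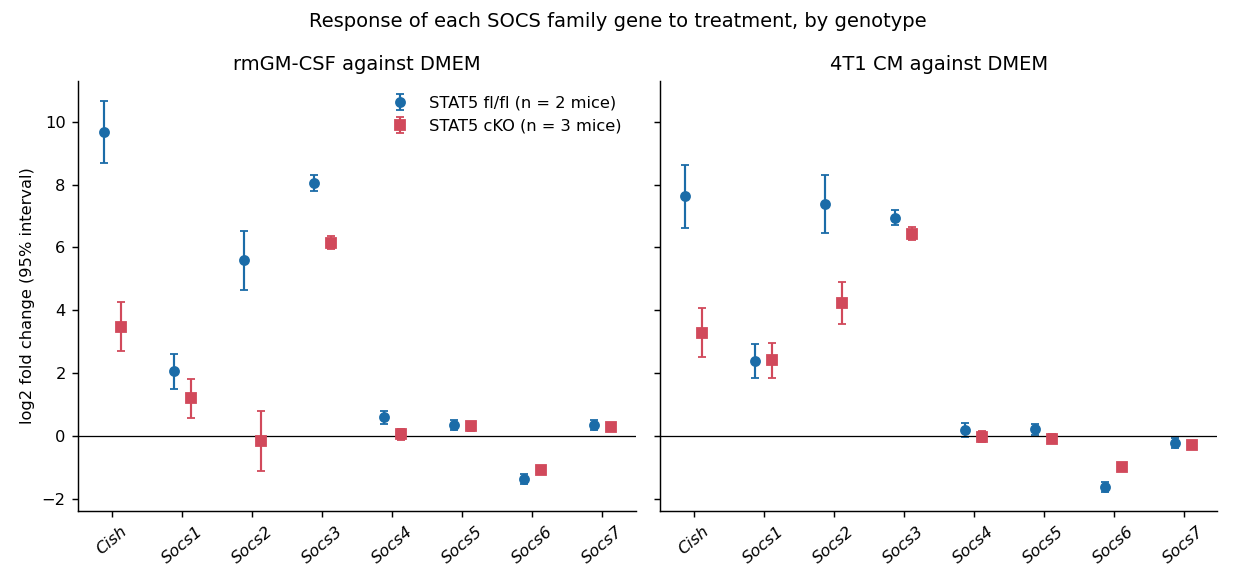
Log2 fold change of each gene against DMEM with rmGM-CSF (left) and 4T1 CM (right); circles are STAT5 fl/fl (n = 2 mice), squares STAT5 cKO (n = 3 mice) and bars 95% intervals from edgeR. Under rmGM-CSF, Cish lies at 9.68 and 3.48 and Socs2 at 5.58 and -0.18 in the 2 genotypes, and under 4T1 CM the Socs1 points coincide at 2.39 and 2.41.

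Whether the genotype difference itself changed with treatment was tested as an interaction. Going from DMEM to rmGM-CSF, the genotype difference shifted for 3 of 8 genes, beside 3.11% of all genes (1.34% without mouse 112 and 1.04% without mouse 113). The shift was -6.20 on the log2 scale for Cish (SE 0.602, adjusted p = 9.53e-06), -5.76 for Socs2 (SE 0.632, adjusted p = 9.03e-06) and -1.90 for Socs3 (SE 0.155, adjusted p = 5.45e-07). The value of Cish was -7.19 without mouse 112 and -5.59 without mouse 113, and that of Socs2 was -6.38 without mouse 112. Socs4 had a shift of -0.54 that did not pass (SE 0.133, adjusted p = 0.0227), but it passed in DESeq2 (adjusted p = 0.00450), within a range over all alternatives of 0.00348 to 0.288. Socs1 had -0.87 (SE 0.398, adjusted p = 0.322).

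Going from DMEM to 4T1 CM, the shift was called for 3 of 8 genes, beside 1.27% of all genes. It was -4.34 for Cish (SE 0.603, adjusted p = 0.000641), -3.13 for Socs2 (SE 0.538, adjusted p = 0.00226) and 0.62 for Socs6 (SE 0.0931, adjusted p = 0.00109). The positive value for Socs6 reflects a difference of -0.74 between the genotypes in DMEM and of -0.13 with 4T1 CM. These calls depended on single mice. Without mouse 113, edgeR called 0 of 8 genes, 5 had an unadjusted p under 0.05, and 0.186% of all genes were called. The values were then -3.60 for Cish (adjusted p = 0.0119, range over all alternatives 2.30e-08 to 0.0119), -2.37 for Socs2 (0.0213, range 2.20e-12 to 0.0317) and 0.59 for Socs6 (0.0477, range 1.36e-06 to 0.0477). Without mouse 112, Cish had -5.45, Socs2 had -4.02, and the call of Socs6 was lost (adjusted p = 0.0213). That of Socs2 was lost also without mouse 114 (0.0317) or 115 (0.0200). Socs3 had a shift of -0.51 (SE 0.155, adjusted p = 0.0984).

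The genotype difference was smaller in size with 4T1 CM than with rmGM-CSF for 3 of 8 genes, beside 1.47% of all genes (0.706% without mouse 112 and 0.612% without mouse 113). It was less negative by 1.86 on the log2 scale for Cish (SE 0.194, adjusted p = 1.83e-05), by 2.62 for Socs2 (SE 0.387, adjusted p = 0.000119) and by 1.39 for Socs3 (SE 0.0843, adjusted p = 7.91e-08). This contrast is not taken against the DMEM libraries, in which Cish and Socs2 had few counts, although those libraries share the fitted model. For Socs2 it rests in STAT5 cKO on 10 to 19 counts per library with rmGM-CSF. With a mouse left out the values ranged from 1.73 to 1.99 for Cish, 2.37 to 2.93 for Socs2 and 1.35 to 1.42 for Socs3. Socs1 had 0.88 (SE 0.281, adjusted p = 0.130).

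**Figure D4:**
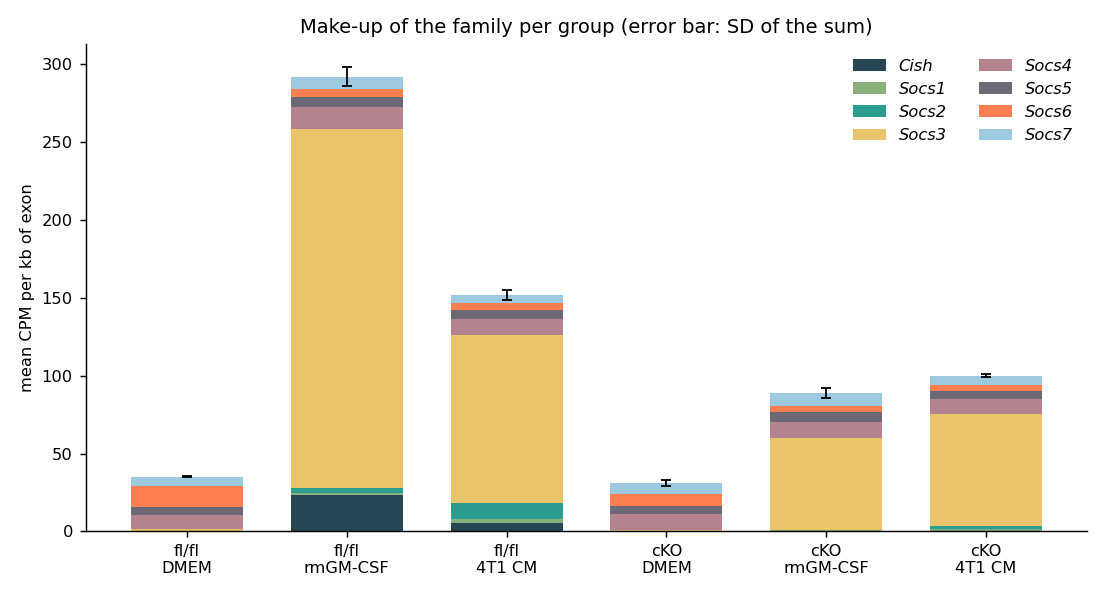
Mean CPM per kb of exon of the 8 genes, stacked for each of the 6 groups of genotype and treatment; the error bar is the SD of the sum over libraries (n = 2 STAT5 fl/fl and 3 STAT5 cKO mice). The sum is 292.1 in STAT5 fl/fl and 89.1 in STAT5 cKO with rmGM-CSF, and Socs3 is the largest layer in the 4 stimulated groups.

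To compare the genes with each other, levels were divided by exon length, as CPM per kb. This length sums all annotated exons of a gene, such as 6419 bases for Cish and 9531 for Socs2, and not those of the transcripts present. The order and shares of the genes within a group thus depend on the annotation. In DMEM the family was led by Socs6, Socs4, Socs7 and Socs5 in both genotypes. In STAT5 fl/fl BMDMs with DMEM the 8 genes summed to 35.2 ± 0.323 CPM per kb (SD, n = 2), of which Socs6 gave 38.0%, Socs4 26.6%, Socs7 17.8%, Socs5 13.6% and Socs3 2.47%. In STAT5 cKO BMDMs the sum was 31.2 ± 1.77 (SD, n = 3), with Socs4 ahead at 31.6% and Socs6 at 25.7%. With rmGM-CSF the sums were 292.1 ± 6.18 in STAT5 fl/fl and 89.1 ± 3.32 in STAT5 cKO, and with 4T1 CM 151.9 ± 3.08 and 99.9 ± 0.965. The genotypes did not overlap in any of the 3 treatments, but the difference in the sum was not tested. With so few libraries such a separation can arise by chance, and the same mice recur over the treatments. Socs3 made up 79.0% and 66.4% of the sum with rmGM-CSF and 70.9% and 72.5% with 4T1 CM in the 2 genotypes.

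Below Socs3, the order of the CPM per kb levels in STAT5 fl/fl with rmGM-CSF was Cish, Socs4, Socs7, Socs5, Socs6, Socs2 and Socs1, and no neighbours overlapped. Cish had 23.1 CPM per kb there, or 7.90% of the sum, and 0.357, or 0.400%, in STAT5 cKO BMDMs, where Socs2 alone ranked below it. In STAT5 fl/fl with 4T1 CM, Socs4 (10.4 to 11.1 CPM per kb) and Socs2 (8.39 to 12.3) overlapped, and the range of Cish (5.15 to 6.03) overlapped those of Socs5 (5.49 to 5.59) and Socs7 (5.29 to 5.35), which did not overlap each other. In STAT5 cKO with 4T1 CM the neighbours Socs2 (1.42 to 1.82) and Socs1 (1.12 to 1.51) overlapped. In DMEM, Cish and Socs2 ranked last in both genotypes, and their ranges overlapped in STAT5 fl/fl (0.0131 to 0.0425 and 0.0398 to 0.0860 CPM per kb).

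Other genes of the pathway were counted from lists that were chosen with earlier results of these data known. The counts stand beside the 2.49%, 9.8% and 7.7% of all tested genes called between genotypes in DMEM, rmGM-CSF and 4T1 CM. Of 10 cytokine ligands of these receptors, 3 were tested, and Osm, an IL-6 family cytokine, was lower in STAT5 cKO with rmGM-CSF (log2 fold change -1.07, adjusted p = 1.88e-05). Il10, an inducer of SOCS3, was higher in STAT5 cKO with 4T1 CM (1.63, adjusted p = 0.00701). This rests on 6 to 14 counts per library in STAT5 fl/fl and 27 to 38 in STAT5 cKO, and DESeq2 called 0 of the 3 tested ligands there. Of 20 receptor chains, 16 were tested. Between genotypes, 1 was lower in DMEM (Il6ra, -0.24), 7 were lower with rmGM-CSF, and with 4T1 CM 2 were lower and 1 higher. The strongest with rmGM-CSF were Il4ra, the IL-4 receptor alpha chain (-1.48, adjusted p = 4.39e-10), Csf2rb, the signaling chain of the GM-CSF receptor (-1.21, adjusted p = 1.92e-09), Lifr (-0.86) and Csf2rb2 (-0.73). Csf2rb rose from 617.8 ± 0.559 to 1671 ± 14.2 CPM in STAT5 fl/fl (SD, n = 2) and was 588.9 ± 32.3 and 720.3 ± 53.5 CPM in STAT5 cKO (SD, n = 3). Csf2rb remained lower in STAT5 cKO with 4T1 CM (-0.61, adjusted p = 1.85e-05), with Csf2rb2 (-0.39), whereas Il2rg was higher (0.58).

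Of the 4 JAK kinases, Jak2 was called between genotypes, with rmGM-CSF (log2 fold change -0.31, adjusted p = 0.00842). By edgeR 0 kinases were called in DMEM and with 4T1 CM, where 0 and 3 had an unadjusted p under 0.05 and DESeq2 called 0 and 0. Jak2 rose with stimulation in both genotypes. Its log2 fold change against DMEM was 1.42 in STAT5 fl/fl and 1.23 in STAT5 cKO under rmGM-CSF, and 2.25 and 2.14 under 4T1 CM. Of the 7 STAT genes, the deleted Stat5a and Stat5b were lower in each treatment, Stat3 was lower with rmGM-CSF (-0.26, adjusted p = 0.00432), and Stat4 was higher with 4T1 CM (0.81, adjusted p = 0.00216). Stat3 rose with rmGM-CSF by 1.14 in STAT5 fl/fl and 0.96 in STAT5 cKO, and with 4T1 CM by 2.33 and 2.20.

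The 6 partners with which SOCS box proteins form ubiquitin ligases (Elob, Eloc, Cul5, Rnf7, Ube2f and Arih2) gave 0 calls in edgeR between genotypes in DMEM, rmGM-CSF and 4T1 CM. Of these, 2, 0 and 2 had an unadjusted p under 0.05, and DESeq2 called 0 in each. With rmGM-CSF, Ube2f, which charges Cullin 5 with NEDD8, rose in STAT5 fl/fl (log2 fold change 0.88, adjusted p = 2.04e-08) and in STAT5 cKO (0.66, adjusted p = 7.46e-08), as did Arih2 (0.66 and 0.43). With 4T1 CM, 2 of 6 rose in STAT5 fl/fl (Arih2, 0.71, and Elob, 0.48) and 1 in STAT5 cKO (Arih2, 0.68), shares not above the 37.4% and 37.6% of all genes called there. The inhibitors of other families (13 genes, among them PIAS proteins and tyrosine phosphatases) gave 1 call in DMEM (Cblb, -0.48), 2 with rmGM-CSF (Usp18, 0.60, and Ptpn2, -0.49) and 1 with 4T1 CM (Ptpn6, 0.26). The last 2 counts are near the 9.8% and 7.7% of all genes called in these comparisons.

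Of 8 further known STAT5 targets, 7 were tested. In DMEM 1 was higher in STAT5 cKO (Cdkn1a, a cyclin-dependent kinase inhibitor gene, with a log2 fold change of 0.95). With rmGM-CSF 4 were lower, among them Osm (-1.07), the kinase Pim1 (-1.06, adjusted p = 5.31e-07) and Cdkn1a (-0.86), and 1 was higher, the repressor Bcl6 (4.02, adjusted p = 7.58e-16). With 4T1 CM 1 was lower (Bcl2l1, -0.44) and Bcl6 was higher (2.78, adjusted p = 9.57e-14). Bcl6, which STAT5 is known to repress, fell in STAT5 fl/fl from 146.3 CPM in DMEM to 16.5 with rmGM-CSF and 30.4 with 4T1 CM, and had 151.4, 268.3 and 208.4 CPM in STAT5 cKO. The difference for Pim1, at 542.1 CPM in STAT5 fl/fl and 260.1 CPM in STAT5 cKO with rmGM-CSF, was far smaller in fold than those of Cish and Socs2, a comparison between genes for which no test was made.

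Genes next to the family members on the chromosome were added to the description after the data had been seen. The tested neighbour of Cish on its lower side, Mapkapk3, 6149 bases away, was lower in STAT5 cKO with rmGM-CSF (log2 fold change -1.14, adjusted p = 1.19e-08) and 4T1 CM (-0.42, adjusted p = 0.00143), whereas Hemk1, 24300 bases away on the other side, was not called (-0.02 and -0.14). Wdhd1, a replication factor gene that lies 74 bases from Socs4, was lower with rmGM-CSF (-2.04, adjusted p = 1.40e-09) and 4T1 CM (-1.002, adjusted p = 1.92e-05). Mapk1ip1l, 2164 bases away on the other side of Socs4, was lower with rmGM-CSF (-0.40, adjusted p = 0.000502) and had 0.04 with 4T1 CM. Near Socs3, Pgs1 was lower under both stimuli (-0.81 and -0.36), and Tha1, 92598 bases away, with rmGM-CSF (-1.32). The neighbours of Socs2 (Cradd and Mrpl42), Socs5, Socs6 and Socs7 were not called between genotypes under either stimulus. Clec16a, next to Socs1, was higher in STAT5 cKO with 4T1 CM (0.42, adjusted p = 0.000429). Genes annotated across Cish or Socs6 had at most 2 counts in any library.

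The genes whose log2 CPM followed each member most closely over the 15 libraries were listed as a description, since the libraries share mice and treatments. For Cish they were Vkorc1l1, Pacsin2 and Fchsd2 (Pearson r 0.979, 0.977 and 0.972), and for Socs2 the retinoic acid receptor gene Rara, Cdh1 and Stk38l (0.985, 0.982 and 0.980). For Socs3 they included Ppp1r18 and the interleukin gene Il1b (0.997 and 0.995). Il1b had 8.58, 1081 and 682.2 CPM in STAT5 fl/fl with DMEM, rmGM-CSF and 4T1 CM, and 12.1, 379.1 and 539.7 CPM in STAT5 cKO. It thus had the same order of groups under stimulation as Socs3. For Socs1 they were St6galnac4, Etv6 and Tpm3 (0.967, 0.965 and 0.964), and for Socs6 the sterol hydroxylase gene Cyp27a1, Tmem140 and Rbbp9 (0.973, 0.973 and 0.970). For Socs4 they included Prkd3 and Tma16 (0.915 and 0.907), for Socs5 Vwa5a, Nop56 and Nol9 (0.950, 0.926 and 0.926), and for Socs7 the lymphotoxin gene Ltb, Mtmr14 and Crnkl1 (0.979, 0.972 and 0.968). Between members, the highest value was that of Socs1 and Socs2 (0.919), and the lowest that of Socs3 and Socs6 (-0.859).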

How the data were processed

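Counts per gene were deposited by the authors without normalization. The authors trimmed read pairs of stranded libraries with Trimmomatic 0.33, aligned them to GRCm38 with HISAT2 2.1.0 and counted fragments with featureCounts 1.6.2, on the strand of the gene, for pairs with both ends mapped. Libraries of another treatment named in the file header are not analysed here.

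A quasi-likelihood model of 6 groups was fitted to all 15 libraries with edgeR 4.0.16 (R 4.3.3), after a filter that required over 1 CPM in 2 or more libraries and with relative log expression factors (0.945 to 1.08). The methods of the study state this filter, this normalization, a linear model and a threshold of 0.01 for adjusted p. The Benjamini-Hochberg adjustment covered every tested gene, and SEs came from the fitted model. The biological coefficient of variation was 0.0787. Where a group mean is followed by ±, the value after it is the SD over mice, and other group means are given without an SD. Intervals of count ratios cover counting error only.

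That the number in a library name marks the mouse was inferred from its recurrence over treatments. The mouse was added as a block, or as a random effect with limma 3.58.1, as an alternative. Other alternatives were TMM, no filter, the likelihood ratio test, DESeq2 1.42.0, the compared groups alone, each mouse left out and, added after the data were seen, the legacy quasi-likelihood test. The quasi-likelihood test was tried on simulated counts with known changes, and the other steps were not.

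The members and gene lists were chosen with earlier results of these data known. Named genes are the members, Stat5a and Stat5b, up to 4 called genes per pathway list and comparison with the greatest log2 fold change in size, and the 3 tested genes most correlated with each member in log2 CPM (prior count 2). Some genes that meet these rules are not reported here. Promoters came from RefSeq. All 8 members matched a symbol, as did 55144 of 55385 genes.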

Additional observations from a re-analysis of the deposited data

Results flagged for a closer look

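The effect of STAT5 deletion differed between treatments, by a test of the difference itself, for 4 of the 8 genes. Of all genes, 3.11% were called for the shift from DMEM to rmGM-CSF, 1.27% from DMEM to 4T1 CM and 1.47% between the stimuli. For Cish, the log2 difference between STAT5 cKO and STAT5 fl/fl shifted by -6.20 from DMEM to rmGM-CSF and by -4.34 from DMEM to 4T1 CM, and it was less negative by 1.86 with 4T1 CM than with rmGM-CSF. For Socs2 these values were -5.76, -3.13 and 2.62. For Socs3 the shift was -1.90 from DMEM to rmGM-CSF, and the difference was less negative by 1.39 with 4T1 CM than with rmGM-CSF. Socs6 stood apart from the other genes by its sign, as the difference seen in DMEM shifted by 0.617 with 4T1 CM. This was the only shift called for Socs6, and, as described above, the calls for the 4T1 CM shift depended on single mice. The values for Cish and Socs2 that involve DMEM rest on 2 to 23 counts per library in that treatment. Those between 4T1 CM and rmGM-CSF are not taken against the DMEM libraries. The Socs2 value between the stimuli still rests on 10 to 19 counts per library in STAT5 cKO with rmGM-CSF.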

How the results depend on the processing

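Of the 1149 values recomputed for the members, 1095 kept their direction and their side of the threshold, 35 lost the call, 4 gained it and 15 changed sign, and each change of sign came from leaving out a mouse, for a gene that was not called. TMM and the omission of the filter changed 0 of 96 values each. The likelihood ratio test, the model of the compared groups alone and DESeq2 called the rmGM-CSF shift of Socs4 (adjusted p = 0.00511, 0.00836 and 0.00450). Socs1 with 4T1 CM between genotypes was lost in the compared groups alone (0.0275), in DESeq2 (0.0128) and in the legacy test chosen after seeing the data (0.0133), and the 4T1 CM shift of Socs2 in the compared groups alone (0.0105). The latter model gave no value for Cish and Socs2 between genotypes in DMEM, nor for Socs2 with rmGM-CSF against DMEM in STAT5 cKO, since they missed the filter. With the replicate block for the mouse, 72 of 72 values kept their call, for example the rmGM-CSF shift of Cish at -6.21 (adjusted p = 9.75e-06) and the 4T1 CM shifts of Cish (-4.34, 0.000566), Socs2 (-3.13, 0.000549) and Socs6 (0.617, 0.000483). The block cannot be fitted to genotypes within a treatment, where the mouse as a random effect kept 24 of 24. That the replicate number pairs libraries is inferred. Over 15 same-numbered pairs the deviations from group means correlated at 0.0548 to 0.214, and in 28 of 30 cases a library correlated best with its own number in another treatment. These pairs and cases are not independent. With 2 libraries in each STAT5 fl/fl group, the deviations of mice 112 and 113 mirror each other, so both mice give the same correlations. The block raised the share of all genes called for the 4T1 CM shift from 1.27% to 2.32%.

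With each mouse left out in turn, a single STAT5 fl/fl mouse being assumed to vary like the other groups, these log2 values crossed 0. Between genotypes in DMEM, Cish ranged from -0.417 to 1.21, Socs2 from -0.0114 to 1.09, Socs3 from -0.156 to 0.00121 and Socs4 from -0.0236 to 0.141, and with rmGM-CSF Socs5 ranged from -0.0176 to 0.116. In STAT5 cKO against DMEM, Socs2 ranged from -0.369 to 0.123 and Socs4 from -0.059 to 0.179 with rmGM-CSF, and Socs4 from -0.19 to 0.126 with 4T1 CM. The rmGM-CSF shift of Socs5 ranged from -0.0758 to 0.00965, the 4T1 CM shifts of Socs1 from -0.266 to 0.256 and of Socs7 from -0.164 to 0.0293, and the difference of Socs7 between the stimuli from -0.0512 to 0.039. Members called with rmGM-CSF against DMEM ranged from 5 to 8 in STAT5 fl/fl and from 3 to 6 in STAT5 cKO, and for the 4T1 CM shift from 0 to 3. Depth limits Cish and Socs2 in DMEM, at 2 to 23 counts per library, and Socs2 in STAT5 cKO with rmGM-CSF, at 10 to 19. The 2 STAT5 fl/fl mice limit the comparisons that include them.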
